A study of Mus musculus with 12 samples.

Results

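The BCL2 family genes examined here were the 3 anti-apoptotic genes Bcl2, Bcl2l1 and Mcl1, the 5 BH3-only genes Bcl2l11, Bmf, Bad, Bbc3 and Pmaip1, and the 2 effector genes Bax and Bak1. They were taken by gene name from a table of read counts, which gave 10 genes of 54232. Of these, 9 had enough counts to be tested, and Pmaip1 did not. The counts came from 12 subcutaneous tumors of SVR, a mouse endothelial cell line transformed with a large T antigen and oncogenic H-Ras, which is used as a model of angiosarcoma. The tumors were grown in athymic nude mice of 8 to 12 weeks, which lack T cells, and the labels give the strain as C57BL/6. There were 3 control tumors given vehicle, 3 given trametinib at 1 mg/kg, 3 given cediranib at 3 mg/kg and 3 given the combination at the same doses. All mice were dosed by gavage each day, starting 3 to 7 days after implantation, and per the labels dosing went on until ulceration or a size limit. The study also describes an experiment ended on a fixed day, and which experiment and time apply to each tumor was not stated in the sources used here, so time on treatment may differ between tumors. All tumors were of 1 cell line, and tumor and host RNA were both from mouse and were counted together.

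Trametinib inhibits the kinase MEK, which activates ERK. Cediranib inhibits the VEGF receptor kinases. BCL2 family proteins decide whether the outer mitochondrial membrane is permeabilized, which releases cytochrome c and activates caspases. The anti-apoptotic proteins BCL2, BCL-XL (the main product of Bcl2l1) and MCL1 bind and restrain the other members. The BH3-only proteins occupy the anti-apoptotic proteins or activate the effectors, and the effectors BAX and BAK form the pore. In many cells ERK signaling is linked to this family, since ERK phosphorylates BIM, the product of Bcl2l11, and marks it for degradation. Endothelial cells depend on VEGF for survival, and VEGF signaling is known to raise BCL2 in them. Much of this control acts on proteins, and the counts measure transcripts only.

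The promoters of 4 members on which the results below turn are shown so that their bases can be read beside the expression values. Each is the 250 bases upstream of a RefSeq transcription start, in build GRCm38.p6, written from 5′ to 3′ on the strand of the gene. Capitals mark matches, on either strand, to 4 motifs: FOXO (GTAAACA), AP-1 (TGANTCA), ETS (CCGGAAG) and the E-box (CACGTG). The Bcl2 sequence is at chr1:106714291-106714540 on the minus strand, and the Bcl2l1 sequence at chr2:152831729-152831978 on the minus strand. The Bcl2l11 sequence is at chr2:128125788-128126037 on the plus strand, and the Bad sequence at chr19:6941611-6941860 on the plus strand.
Bcl2: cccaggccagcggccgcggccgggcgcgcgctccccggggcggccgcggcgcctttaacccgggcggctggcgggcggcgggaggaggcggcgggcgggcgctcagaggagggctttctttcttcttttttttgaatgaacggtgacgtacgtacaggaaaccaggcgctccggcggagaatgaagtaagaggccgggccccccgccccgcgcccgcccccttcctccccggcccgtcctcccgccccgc
Bcl2l1: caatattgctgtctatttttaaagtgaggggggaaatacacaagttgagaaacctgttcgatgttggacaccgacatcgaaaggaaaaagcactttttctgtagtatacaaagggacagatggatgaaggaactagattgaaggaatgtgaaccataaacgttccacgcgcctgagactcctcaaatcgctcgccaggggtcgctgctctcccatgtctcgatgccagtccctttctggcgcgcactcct
Bcl2l11: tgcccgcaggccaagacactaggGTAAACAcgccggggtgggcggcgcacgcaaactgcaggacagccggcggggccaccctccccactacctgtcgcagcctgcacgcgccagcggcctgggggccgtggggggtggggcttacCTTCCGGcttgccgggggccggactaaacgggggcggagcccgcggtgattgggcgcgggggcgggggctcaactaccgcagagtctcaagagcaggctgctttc
Bad: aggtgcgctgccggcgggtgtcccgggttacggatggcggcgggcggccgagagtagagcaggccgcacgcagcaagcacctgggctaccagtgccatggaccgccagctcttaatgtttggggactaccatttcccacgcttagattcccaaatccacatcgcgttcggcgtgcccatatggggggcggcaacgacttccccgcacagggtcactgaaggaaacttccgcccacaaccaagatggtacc

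The Bcl2l11 promoter held a FOXO match at position -227 and an ETS match at position -105, counted from the transcription start. The windows of Bcl2, Bcl2l1 and Bad held none of the 4 motifs. Among 32851 mouse promoters of the same length, 3.17% held the FOXO motif, 6.75% the AP-1 motif, 6.91% the ETS motif and 6.02% the E-box. RefSeq promoters were found for 9 members, with 17 start sites in all. Of the other members, Mcl1 had an ETS match, Bax an E-box, and Bbc3 a FOXO match at one start and an E-box at another. These matches describe letters in the sequence and are not evidence of binding.

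In the coordinates of the table (GRCm38), Bcl2 (ENSMUSG00000057329) lay at chr1:106538178-106714274, Bcl2l1 (ENSMUSG00000007659) at chr2:152780668-152831728 and Mcl1 (ENSMUSG00000038612) at chr3:95658788-95660823. Among the BH3-only genes, Bcl2l11 (ENSMUSG00000027381) lay at chr2:128126038-128160961, Bmf (ENSMUSG00000040093) at chr2:118528757-118549687, Bad (ENSMUSG00000024959) at chr19:6941861-6951892, Bbc3 (ENSMUSG00000002083) at chr7:16308393-16317697 and Pmaip1 (ENSMUSG00000024521) at chr18:66458604-66465550. Bax (ENSMUSG00000003873) was at chr7:45461697-45466836 and Bak1 (ENSMUSG00000057789) at chr17:27019810-27029009. For some members these spans are shorter than the gene in GENCODE M21, as for Mcl1, which extends there to 95663176. Parts of 4 of these genes are also exons of another gene in GENCODE M21, and the sources used here do not state whether counting was by strand. Gpr137, on the opposite strand, covers 20.5% of the exonic bases of Bad, and the antisense gene D630008O14Rik covers 6.09% of those of Bcl2. Gm45808 covers 12.2% of Bax on the same strand, and 2 genes named Ggnbp1 cover 7.35% and 18.2% of Bak1 on the opposite strand. Counts of these genes may include reads of their neighbors.

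The libraries held 9478865 to 11666094 counts, and 12897 genes were tested. A count of 3, the limit that a count of 0 allows, was 0.251 to 0.349 CPM (counts scaled to a common library size) in a library. RNA degradation was the study's stated reason for capturing exons with probes, so a count depends on probes as well as on transcripts. The drug label of the trametinib groups was checked with 2 transcripts that ERK induces. Dusp6, an ERK phosphatase, was at 1.98 to 4.54 CPM in trametinib tumors and 10.2 to 13.9 CPM in combination tumors, against 39.0 to 47.7 CPM in control tumors. Egr1, an early growth response factor, was at 3.18 to 5.11 CPM and 7.17 to 10.6 CPM in the same groups, against 86.2 to 88.1 CPM. All 10 endothelial markers listed, such as Cdh5 and Tie1, had counts in the control tumors. Their summed level was 190 to 418 CPM in control, 46.7 to 106 CPM in trametinib, 111 to 311 CPM in cediranib and 31.5 to 73.8 CPM in combination tumors. The summed level of 26 epidermal markers was 28.7 to 88.5 CPM in control, 8.15 to 14.2 CPM in trametinib, 46.2 to 290 CPM in cediranib and 315 to 521 CPM in combination tumors. In the trametinib tumors 14 to 17 of these 26 markers were at 0, and in the combination tumors 0 to 1. Fibroblast markers summed to 2029 to 20989 CPM in control, 8078 to 36859 CPM in trametinib, 1580 to 6712 CPM in cediranib and 2635 to 5321 CPM in combination tumors. Macrophage markers summed to 371 to 642, 283 to 389, 272 to 406 and 160 to 291 CPM in the same order of groups, and pericyte markers to 66.3 to 433, 117 to 990, 47.5 to 217 and 28.9 to 56.4 CPM. Erythroid markers were at 74.0 to 1791 CPM in control and 15.1 to 16.1 CPM in combination tumors. Skeletal muscle markers varied widely between tumors of a group, with 5.05 to 16166 CPM in control, 215 to 21515 CPM in trametinib, 9.74 to 101 CPM in cediranib and 9.99 to 262 CPM in combination tumors. Adipocyte markers summed to at most 7.37 CPM and lymphocyte markers to at most 1.45 CPM in any tumor.

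Trametinib lowered 2 of the 3 survival genes of the family, and none of its death genes passed the test. Bcl2 and Bcl2l1 fell against control, 4.59-fold and 3.15-fold, while 0 of the 4 BH3-only genes tested and 0 of the 2 effectors passed the test. Here a gene passed at a false discovery rate (FDR) below 0.05 in edgeR's quasi-likelihood test, adjusted over all genes tested. The members that passed were 2 of 9, against 6.12% of all genes, and both were lower, as were 3.47% of all genes. Both also exceeded an absolute log2 fold change of 1.5, the size the study required, and 2.4% of all genes passed with at least that size. Among the 7 other members tested, 2 had an unadjusted p below 0.05 (Mcl1 and Bad), and DESeq2 added Mcl1.

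Cediranib alone gave no member that passed. The share of all genes was likewise 0%, with 557 genes at an unadjusted p below 0.05. None of the 9 members had an unadjusted p below 0.05, and 0 passed by DESeq2, which called 12 genes in all and gave no adjusted p for 2 of the members.

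In combination tumors against control, Bcl2l1 fell and Bad rose, so 2 of 9 members passed, against 9.98% of all genes. Neither reached an absolute log2 fold change of 1.5, whereas 3.61% of all genes passed with at least that size. Bcl2, which had fallen with trametinib, was 3.94-fold higher in combination than in trametinib tumors. It was the only member of 9 to pass in that comparison, where 0.969% of all genes did, 0.721% of all genes with a higher level. Its log2 fold change exceeded 1.5, and 0.675% of all genes passed with that size. Against cediranib, the combination again showed lower Bcl2l1 and higher Bad, 2 of 9 members against 7.68% of all genes, with 2.45% of all genes past a log2 fold change of 1.5 and neither member among them. These comparisons share groups of tumors and are not independent of each other.

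**Figure D1:**
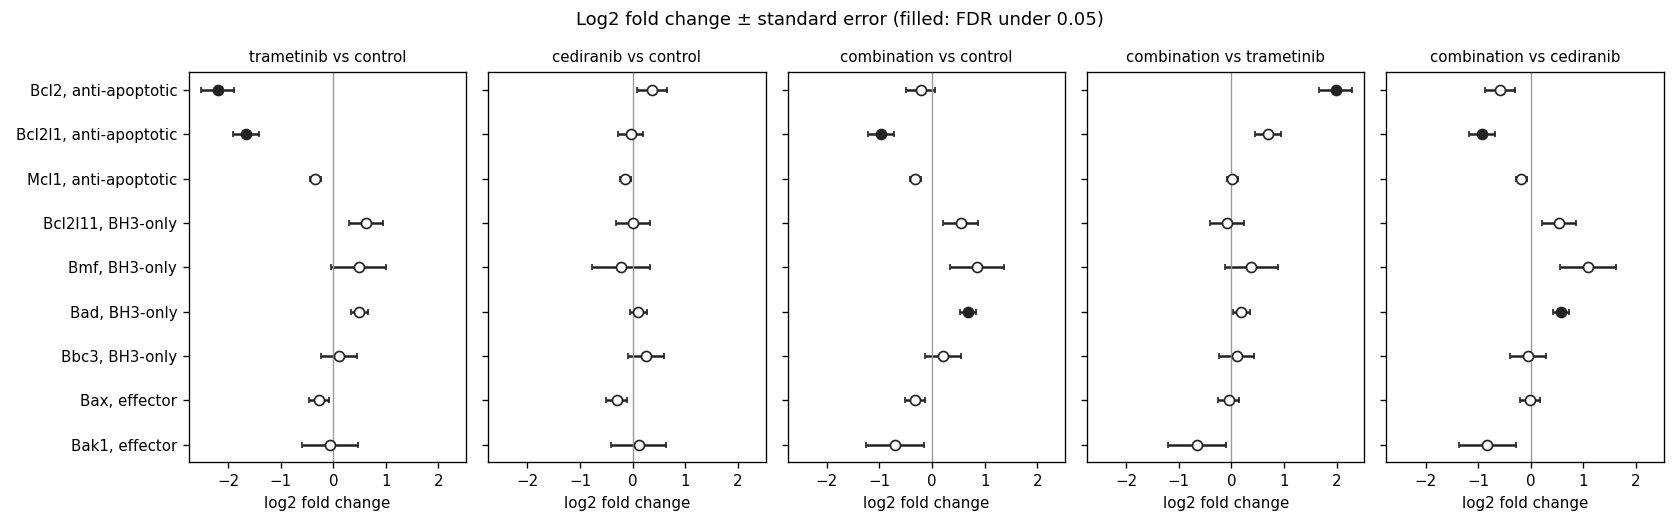
Log2 fold change with its standard error for the 9 tested members (rows) in each of 5 comparisons (panels), with filled points for an FDR below 0.05 in edgeR's test. The filled points are Bcl2 and Bcl2l1 with trametinib, Bcl2l1 and Bad for the combination against control and against cediranib, and Bcl2 for the combination against trametinib, with none for cediranib.

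Among the anti-apoptotic genes, Bcl2 encodes the founding survival protein of the family. In control tumors Bcl2 was at 8.77, 10.9 and 12.6 CPM, and in trametinib tumors at 3.27, 1.98 and 1.76 CPM. Every trametinib tumor was below every control tumor, as was the case in this direction for 12.9% of all genes. The log2 fold change was -2.20 with a standard error (SE) of 0.31 (edgeR FDR 0.00175, n = 3 per group). In whole tumors, fewer cells that express a gene and less RNA per cell cannot be told apart. In the same tumors 4 of 8 tested endothelial markers were lower with trametinib and 0 were higher. The part of this shift in the Bcl2 value was not tested.

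Cediranib tumors held Bcl2 at 14.2, 11.9 and 15.7 CPM, which overlapped with control. The log2 fold change against control was 0.37 (SE 0.28, edgeR FDR 0.999). Combination tumors were at 7.57, 7.08 and 13.1 CPM. The third of these lay above all control tumors and the other 2 below them. Against control the combination differed by -0.22 on the log2 scale (SE 0.28, edgeR FDR 0.666), and by -0.56 to -0.05 with a tumor left out. All 3 combination tumors were above all trametinib tumors, as were 12.4% of all genes, with a log2 fold change of 1.98 (SE 0.31, edgeR FDR 0.0226). This call did not hold without trametinib replicate 2 (1.88, FDR 0.0727), trametinib replicate 3 (1.80, FDR 0.0685), combination replicate 2 (2.16, FDR 0.0618) or combination replicate 3 (1.64, FDR 0.0524), each in edgeR's test. Few genes of any kind passed in those fits: 3, 7, 0 and 10 of 12897, against 125 with all tumors.

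Epidermal markers also separated those 2 groups. Of 21 tested, 10 were higher in combination than in trametinib tumors and 0 were lower. A score over these 21 genes, their mean log2 CPM, was -1.44 to -1.30 in trametinib and 2.83 to 3.48 in combination tumors. With the score as a covariate the Bcl2 difference was 1.83 (SE 0.59, edgeR FDR 0.808). Only 2 of 12897 genes passed in that comparison with the score, against 125 without it. The score separated these 2 groups completely, so this fit cannot decide whether the Bcl2 difference passes apart from it. The Bcl2 difference of trametinib from control passed with the same covariate, where 796 genes passed, against 789 without it. Dusp6 also differed between combination and trametinib tumors, by 1.79 on the log2 scale (SE 0.24, edgeR FDR 0.0196), as did Egr1, by 1.26 (SE 0.22, edgeR FDR 0.0280). The part of these differences in the Bcl2 value was not tested.

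Whether cediranib altered Bcl2 more with trametinib than without it was tested by the interaction. The interaction was 1.61 on the log2 scale (SE 0.42), with an unadjusted p of 0.00223 and an FDR of 0.504 in edgeR's model across all genes. No gene of 12897 passed this test in edgeR, a share of 0%, although 909 had an unadjusted p below 0.05 and DESeq2 called 37, none of them a member. Without the filter on low counts the Bcl2 interaction passed (1.64, SE 0.42, edgeR FDR 0.00899), as did 373 of 29102 genes. That fit also called 489 genes with cediranib against control, where the filtered fit called 0. The call of the Bcl2 interaction thus depends on the filter, which changed the number of calls over all genes as well.

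**Figure D2:**
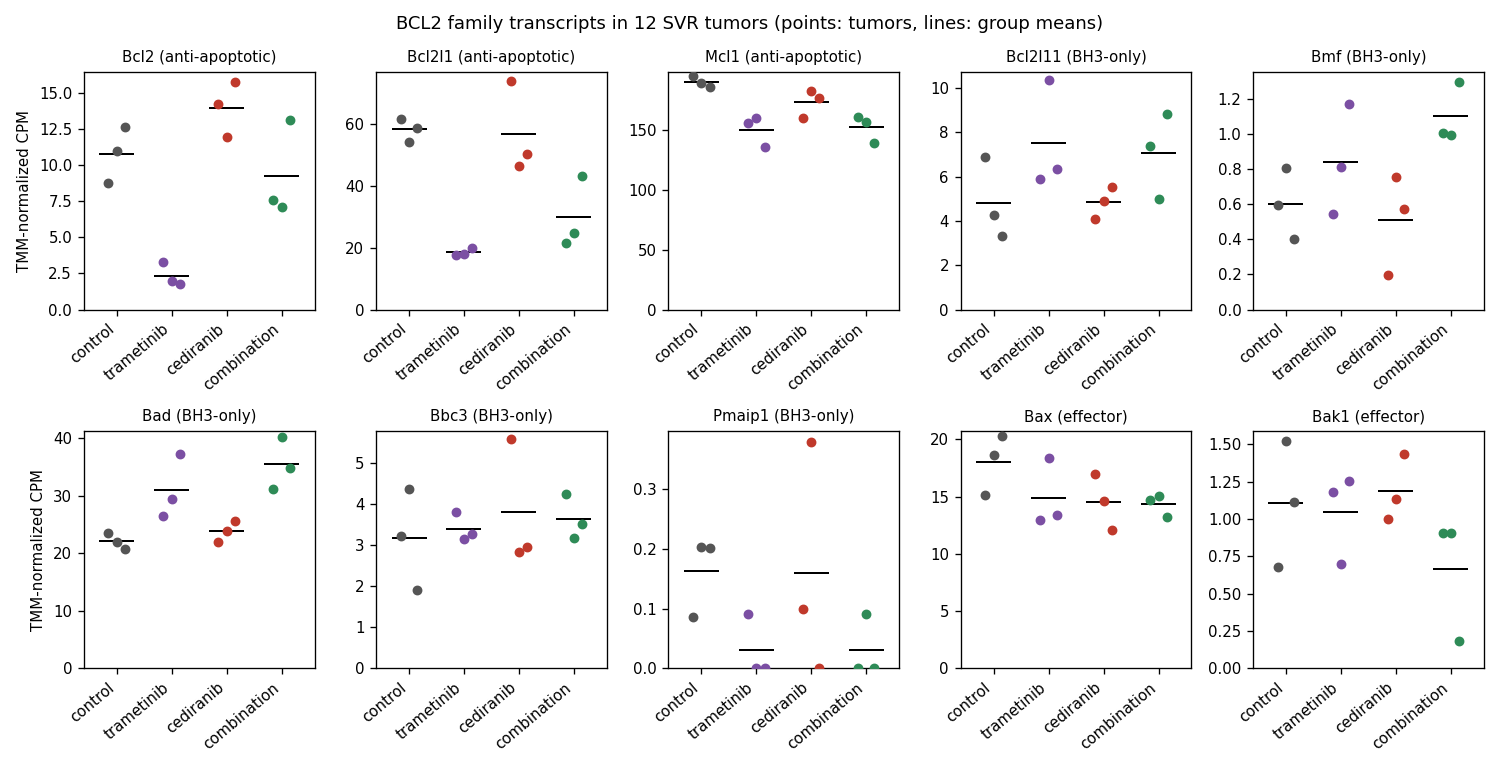
TMM-normalized CPM of the 10 members (panels) in each of 12 tumors, with points for tumors and lines for the means of 3. Bcl2 and Bcl2l1 are low in all 3 trametinib tumors, the third combination tumor is high for both, and Pmaip1 is near 0 in every group.

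Bcl2l1 encodes BCL-XL and, by splicing, the short form BCL-XS, and the counts do not separate these. Control tumors had 61.7, 54.3 and 58.9 CPM. Trametinib tumors had 17.5, 17.9 and 20.0 CPM, with little spread within the group. All were below control, as were 12.9% of all genes. The log2 fold change was -1.66 (SE 0.25, edgeR FDR 0.00248). Cediranib tumors were at 73.9, 46.4 and 50.3 CPM, on both sides of control, with a log2 fold change of -0.04 (SE 0.24, edgeR FDR 0.999).

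Combination tumors held Bcl2l1 at 21.5, 24.9 and 43.1 CPM. All were below control, as were 15.7% of all genes, and the third tumor stood apart from the other 2. The log2 fold change against control was -0.97 (SE 0.24, edgeR FDR 0.0285). Without combination replicate 3 it was -1.34 (edgeR FDR 0.00609). The call did not hold when any of the other 5 tumors was left out, with log2 fold changes of -1.02 to -0.77 and edgeR FDRs of 0.0551 to 0.101 without control replicates 1, 2 or 3 or combination replicates 1 or 2. Over all genes 549 to 1343 passed in those fits, against 1287 with all tumors. Scaling by library totals gave -0.83 (edgeR FDR 0.0647). The epidermal score as a covariate gave -1.35 (SE 0.38, edgeR FDR 0.159). With it 71 of 12897 genes passed for the combination against control, against 1287 without it. In these tumors 6 of 8 tested endothelial markers were lower than in control and 10 of 21 epidermal markers were higher. Also lower were 4 of 5 erythroid, 3 of 6 macrophage and 2 of 5 pericyte markers, and 1 of 2 tested neutrophil markers was higher. The part of these shifts in the Bcl2l1 and Bad values was not tested.

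Bcl2l1 was above all trametinib tumors in all 3 combination tumors, as were 12.4% of all genes, but the difference did not pass (log2 fold change 0.69, SE 0.25, edgeR FDR 0.173). It was 0.33 without combination replicate 3 and 0.17 with the epidermal score as a covariate. It passed without the filter on low counts (0.72, edgeR FDR 0.00688), where 1411 of 29102 genes passed. Against cediranib all 3 combination tumors were lower, as were 14.3% of all genes, with a log2 fold change of -0.93 (SE 0.24, edgeR FDR 0.0387). That call did not hold without cediranib replicates 1 or 3 or combination replicates 1 or 2, which gave -1.001 to -0.70 with edgeR FDRs of 0.0629 to 0.137. It also did not hold with library totals (-0.81, edgeR FDR 0.0833) or in a fit of only these 2 groups (-0.93, edgeR FDR 0.105), and it held with the epidermal score as a covariate (-1.10, edgeR FDR 0.0436). Against cediranib 3 of 8 tested endothelial and 1 of 6 macrophage markers were lower, and 1 of 6 fibroblast markers was higher. The part of these shifts in the Bcl2l1 and Bad values against cediranib was not tested.

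Mcl1 encodes a survival protein with a short half-life and was the most abundant member. Control tumors had 195, 189 and 186 CPM and trametinib tumors 155, 160 and 135 CPM. All trametinib tumors were below control, as were 12.9% of all genes, and the log2 fold change of -0.34 (SE 0.10) missed the threshold at an edgeR FDR of 0.0798. Combination tumors, at 161, 156 and 139 CPM, were likewise all below control, as were 15.7% of all genes (log2 fold change -0.32, SE 0.10, edgeR FDR 0.0714). DESeq2 called both differences, with adjusted p of 0.0164 and 0.0262. Cediranib tumors were at 159, 182 and 177 CPM, also all below control, by 0.14 on the log2 scale (log2 fold change -0.14, SE 0.10, edgeR FDR 0.999). Non-overlapping groups in this direction were found for 3.45% of all genes in cediranib against control.

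Among the BH3-only genes, Bad was the most abundant. Its protein binds BCL-XL and BCL2 and is held inactive by phosphorylation through AKT and the ERK-activated RSK kinases. Control tumors had 23.5, 21.9 and 20.7 CPM, trametinib tumors 26.4, 29.4 and 37.3 CPM, and combination tumors 31.2, 40.2 and 34.8 CPM. Both groups that received trametinib lay wholly above control, as was found for 12.9% of all genes with trametinib and 15.6% with the combination. The increase passed for the combination (log2 fold change 0.68, SE 0.16, edgeR FDR 0.0198) and not for trametinib (0.49, SE 0.16, edgeR FDR 0.0874). The difference between the combination and trametinib was 0.19 (SE 0.15, edgeR FDR 0.558). Cediranib tumors, at 21.9, 23.8 and 25.6 CPM, overlapped with control (0.11, SE 0.16, edgeR FDR 0.999).

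The rise of Bad in the combination did not hold without control replicate 2 (0.68, FDR 0.0625), control replicate 3 (0.64, FDR 0.0788) or combination replicate 2 (0.59, FDR 0.0701) in edgeR's test, or with the epidermal score as a covariate (0.60, FDR 0.410). Against cediranib the rise was 0.57 (SE 0.16, edgeR FDR 0.0452), and it did not hold when any of the 6 tumors was left out (0.49 to 0.67, edgeR FDR 0.0503 to 0.138). Nor did it hold without the filter on low counts (edgeR FDR 0.0679), in a fit of only these 2 groups (0.0770), with the replicate block (0.0589) or with the epidermal score (0.154). Gpr137, which shares exonic bases with Bad, had a log2 fold change of 0.62 in combination against control (SE 0.21, edgeR FDR 0.0865). Reads of the overlap could belong to either gene.

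Bcl2l11 encodes BIM, in several isoforms that the counts do not separate. Control tumors had 6.90, 4.26 and 3.33 CPM and trametinib tumors 5.90, 10.4 and 6.36 CPM, so the groups overlapped. The log2 fold change was 0.63 (SE 0.32, edgeR FDR 0.300), with 0.98 without control replicate 1 and 0.34 without trametinib replicate 2. In cediranib tumors it was at 4.10, 4.92 and 5.55 CPM, and in combination tumors at 7.37, 4.99 and 8.82 CPM. The combination differed from control by 0.54 (SE 0.32, edgeR FDR 0.310) and from trametinib by -0.09 (SE 0.32, edgeR FDR 0.917). The highest control tumor exceeded the lowest tumor of each treated group.

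Bmf, which encodes a BH3-only protein associated with the cytoskeleton, was detected at low levels. It was at 0.596, 0.811 and 0.404 CPM in control, 0.545, 0.815 and 1.17 CPM in trametinib, 0.200, 0.757 and 0.574 CPM in cediranib and 1.01, 0.999 and 1.30 CPM in combination tumors. Only the combination group lay wholly above control, as was found for 15.6% of all genes. Its log2 fold change was 0.86 (SE 0.52, edgeR FDR 0.313) against control and 1.09 (SE 0.53, edgeR FDR 0.241) against cediranib. These values rest on 19 counts over the 3 control tumors and 35 over the 3 combination tumors.

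Bbc3 encodes PUMA and Pmaip1 encodes NOXA, both classical targets of p53. Bbc3 was at 1.92 to 4.36 CPM in control, 3.14 to 3.81 CPM in trametinib, 2.84 to 5.60 CPM in cediranib and 3.18 to 4.24 CPM in combination tumors. All 4 groups overlapped, and the largest log2 fold change from control was 0.26, with cediranib (SE 0.34, edgeR FDR 0.999). Pmaip1 had 0 to 4 counts in any tumor and a sum of 5 counts over the 3 control tumors. At this depth no difference in Pmaip1 was detectable.

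The effectors showed no passing difference in any comparison, nor did either have an unadjusted p below 0.05 or a call by DESeq2. Bax was at 15.2, 18.6 and 20.3 CPM in control, 13.0, 18.4 and 13.4 CPM in trametinib, 17.0, 14.7 and 12.1 CPM in cediranib and 14.7, 15.1 and 13.2 CPM in combination tumors. All combination tumors were below control in Bax, as were 15.7% of all genes, with a log2 fold change of -0.33 (SE 0.19, edgeR FDR 0.295). Bak1 was at 0.681, 1.52 and 1.11 CPM in control, 1.18, 0.698 and 1.26 CPM in trametinib, 0.999, 1.13 and 1.44 CPM in cediranib and 0.909, 0.908 and 0.186 CPM in combination tumors. The third combination tumor was far below the other 2, and the group differed from control by -0.71 (SE 0.55, edgeR FDR 0.441). With a tumor left out this Bak1 difference ranged from -1.01 to -0.28, and it rests on 34 counts in control and 21 in combination tumors.

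Set side by side, the 3 roles differed in their medians under trametinib. The median log2 fold change was -1.66 for the 3 anti-apoptotic genes, 0.49 for the 4 BH3-only genes tested and -0.17 for the 2 effectors, against 0.01 for all genes. For the combination against control the medians were -0.32, 0.61 and -0.52, against 0.00155. With cediranib they were -0.04, 0.06 and -0.10, against -0.00268. These are descriptions of 9 genes, and no test compares the roles.

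Per kilobase of the length given in the table, transcript levels can be compared between genes. In control tumors Mcl1 was at 55.6 ± 1.31 CPM per kb, Bcl2l1 at 12.7 ± 0.816, Bax at 11.4 ± 1.67, Bad at 11.0 ± 0.699, Bbc3 at 1.49 ± 0.575 and Bcl2 at 1.18 ± 0.211 (SD, n = 3). Bcl2l11 was at 0.602 ± 0.230, Bak1 at 0.459 ± 0.174, Bmf at 0.115 ± 0.0387 and Pmaip1 at 0.0617 ± 0.0256 CPM per kb. Of the neighbors in this order, Bcl2l1 and Bax overlapped between tumors, as did Bax and Bad, Bbc3 and Bcl2, and Bcl2l11 and Bak1. Bad alone held 83.1% of the summed BH3-only level in control tumors on average. Exon capture may not recover every gene alike, so this order holds for captured transcripts.

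Within the anti-apoptotic genes the balance moved toward Mcl1 in trametinib tumors. Mcl1 held 79.3% to 80.9% of the summed anti-apoptotic CPM per kb in control tumors and 89.7% to 91.9% in trametinib tumors. Bcl2l1 held 17.3% to 18.8% in control and 7.69% to 9.87% in trametinib tumors. In combination tumors the share of Mcl1 was 79.0% to 89.5%, which overlapped with control and lay below trametinib.

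Death gene to survival gene ratios within each tumor were also formed from CPM per kb. The ratio of Bcl2l11 to Bcl2 was 0.301 to 0.897 in control, 2.06 to 5.97 in trametinib, 0.329 to 0.471 in cediranib and 0.768 to 1.11 in combination tumors. The trametinib tumors were apart from all other groups, and the combination overlapped with control. The ratio of Bad to Bcl2l1 was 0.803 to 0.921 in control, 3.45 to 4.25 in trametinib, 0.676 to 1.17 in cediranib and 1.85 to 3.69 in combination tumors. Here the combination lay wholly above control and overlapped with trametinib. The summed BH3-only level per summed anti-apoptotic level was 0.191 ± 0.0163 in control, 0.381 ± 0.0849 in trametinib, 0.223 ± 0.00813 in cediranib and 0.394 ± 0.0381 in combination tumors (SD, n = 3). The cediranib range of this ratio, 0.218 to 0.233, was also wholly above the control range of 0.172 to 0.201. With trametinib the ratios of Bad to Bcl2, Bax to Bcl2l1 and Bcl2l11 to Bcl2l1 or Mcl1 were also wholly above control. Not every ratio rose. The ratio of Bax to Mcl1 was 0.169 to 0.237 in control and 0.181 to 0.250 in trametinib tumors, and the effector sum per anti-apoptotic sum was 0.139 to 0.194 and 0.176 to 0.235, with overlap in both. The ratio of Bax to Bcl2 was 9.34 to 10.0 in control, 23.1 to 54.0 in trametinib, 4.46 to 7.15 in cediranib and 5.85 to 12.4 in combination tumors, so it lay wholly below control with cediranib. The ratios rest on the same counts as the single genes and are given without a test.

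**Figure D3:**
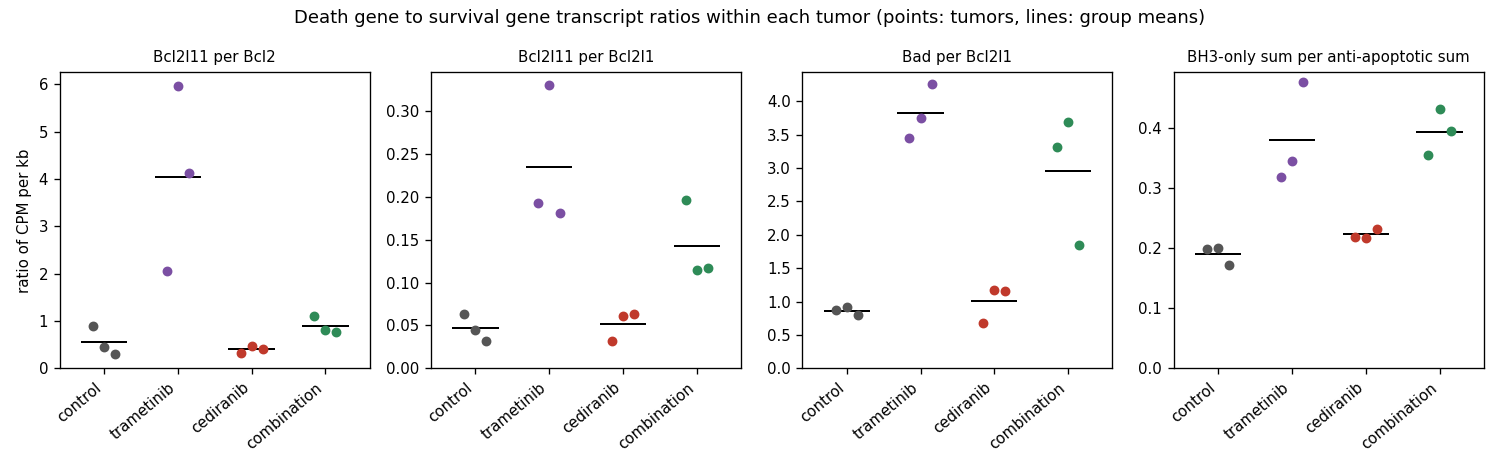
Ratios of CPM per kb within each tumor for 4 pairs of BH3-only and anti-apoptotic measures (panels), with points for tumors and lines for the means of 3. Bcl2l11 per Bcl2 is highest in the 3 trametinib tumors, at 2.06 to 5.97, whereas Bad per Bcl2l1 is above control in both groups given trametinib and the summed ratio is above control in all 3 treated groups, least with cediranib.

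Other genes of the apoptotic machinery are given by list, beside shares of all genes that passed of 6.12% with trametinib and 9.98% with the combination. With lists of 5 to 15 tested genes, a count of 0 lies near those shares. Of 16 further BCL2 family genes, 5 were tested (Bcl2l2, Bcl2l13, Bok, Bnip3 and Bnip3l), and 0 passed in any comparison. With trametinib Bcl2l13 alone among them had an unadjusted p below 0.05, and DESeq2 called 0. Of 14 genes of the mitochondrial pathway of apoptosis, including Apaf1 and Cycs, 12 were tested and 0 passed with trametinib or with the combination. Unadjusted p below 0.05 were found for 2 of them with trametinib and 3 with the combination, and DESeq2 called 0 in both. With trametinib Apaf1, the scaffold of the apoptosome, differed by 0.06 on the log2 scale (SE 0.11, edgeR FDR 0.820).

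Of 6 inhibitor of apoptosis genes, 5 were tested and 0 passed with trametinib or the combination. With trametinib Birc5, which encodes survivin, differed by 0.87 on the log2 scale (SE 0.32, edgeR FDR 0.148), and 2 genes with trametinib and 1 with the combination had an unadjusted p below 0.05. DESeq2 called 0 with trametinib and 1 with the combination (Naip2). Of 10 death receptor pathway genes, 5 were tested, and 0 passed in any comparison in edgeR or DESeq2. Casp8, the initiator caspase of that pathway, had an unadjusted p below 0.05 for the combination against control and against cediranib. Of 10 genes of the unfolded protein and integrated stress responses, 0 passed in any comparison in edgeR or DESeq2, with 0 at an unadjusted p below 0.05 with trametinib and 3 with the combination (Atf3, Hspa5 and Atf4).

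Target genes of p53 and FOXO factors, and a list of regulators of BCL2 family genes or proteins, were counted in the same way. Of 16 p53 target genes 13 were tested, and 0 passed with trametinib or the combination against control, where 4 and 5 had an unadjusted p below 0.05 and DESeq2 called 1 and 2. Plk2 was lower in combination than in trametinib tumors (log2 fold change -1.38, SE 0.27, edgeR FDR 0.0399). It was the only gene of these 13 to pass in any comparison in edgeR. Of 14 FOXO target genes 1 passed in edgeR with trametinib and 1 with the combination, where 5 and 5 had an unadjusted p below 0.05 and DESeq2 called 3 and 4. The gene that passed in edgeR was Sesn1, a stress-induced regulator of mTORC1, which rose with trametinib (1.28, SE 0.21, FDR 0.00433) and with the combination (1.01, SE 0.21, FDR 0.0132). DESeq2 called Irs2, Sesn1 and Pik3ip1 in both and Gadd45a with the combination. Of these Irs2 was lower, with edgeR log2 fold changes of -1.08 and -0.91, and the others were higher. Against cediranib 3 FOXO targets were higher in combination tumors by edgeR, Sesn1, Txnip and Gadd45a.

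Of 16 regulators 15 were tested, and 1 was higher and 1 lower with trametinib. Foxo3, a transcription factor that can induce Bcl2l11, rose by 0.98 (SE 0.20, edgeR FDR 0.0143). Myc fell by 1.06 on the log2 scale (SE 0.17, edgeR FDR 0.00348). With the combination Foxo1 rose by 1.22 (SE 0.28, edgeR FDR 0.0188), Myc had a log2 fold change of -1.07 (SE 0.17, edgeR FDR 0.00412), and Trp63 rose by 4.08 (SE 1.12, edgeR FDR 0.0396). Foxo1 with trametinib (0.66, edgeR FDR 0.195) and Foxo3 with the combination (0.61, edgeR FDR 0.0752) were also higher without passing. Neither passed between the combination and trametinib (edgeR FDR 0.305 for Foxo1 and 0.373 for Foxo3). Trp63 is also on the epidermal marker list.

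Over the 12 tumors, the transcripts most like Bcl2 by Pearson correlation of log2 CPM were Plk3 (r = 0.94), Spred3 (0.93) and Slc39a14 (0.93). For Bcl2l1 they were Nrarp (0.97), Gm38287 (0.97) and Sema6d (0.96), for Mcl1 Camk2n1 (0.94), Rasal2 (0.93) and Gm16059 (0.93), and for Bad Pi4k2a (0.94), Hopx (0.93) and Hopxos (0.93). Bcl2l11 was most like Ddah2 (0.90), Lzts2 (0.90) and Hs1bp3 (0.89), and Bax like Zfp366 (0.96), Il2rg (0.92) and Gm20489 (0.91). Bmf was most like Radil (0.90), Camkmt (0.89) and Ltbp3 (0.88), Bbc3 like Stn1 (0.89), Epg5 (0.84) and 4930483K19Rik (0.84), and Bak1 like Serpinb6a (0.93), Cct3 (0.93) and Wdr1 (0.92). Bcl2 and Bcl2l1 had an r of 0.84 with each other. These genes were picked as the highest among all genes tested, the tumors fall into 4 treatment groups, and the values are a description.

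The trametinib calls for Bcl2 and Bcl2l1 were those that passed under every alternative tried. Bcl2 passed in 13 of 13, with log2 fold changes of -2.53 to -2.02, and Bcl2l1 in 13 of 13, with -1.72 to -1.52. For the combination against control Bcl2l1 passed in 5 of 13 and Bad in 9 of 13. For the combination against trametinib Bcl2 passed in 8 of 13. Against cediranib Bcl2l1 passed in 7 of 13 and Bad in 3 of 13. None of these 7 differences changed direction.

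**Figure D4:**
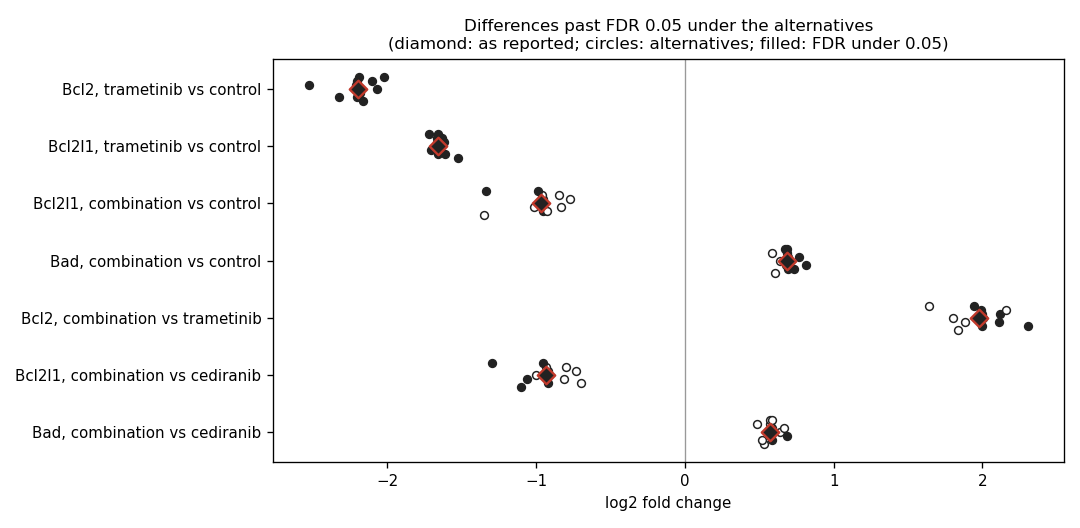
Log2 fold change of each of the 7 differences that passed (rows) as reported (diamond) and under 13 alternatives each (circles), filled where the FDR was below 0.05. All circles for Bcl2 and Bcl2l1 with trametinib are filled, the other 5 rows hold filled and open circles, and none crosses 0.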

How the data were processed

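RNA of whole tumors was enriched with the TruSeq RNA Exome kit. The authors used bcl2fastq 1.8.4 for demultiplexing and read files, STAR 2.7.1a in 2-pass mode for alignment to GRCm38, and featureCounts 1.6.0 for counting. The deposited values were raw counts per gene. Annotation release, strandedness and treatment of multiply mapped reads were not stated in the sources used here. The table held 0 columns of other samples. Groups came from the sample labels, which do not say that replicates were separate mice, so p-values measure the spread between these samples.

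Genes kept by filterByExpr (minimum count 10, minimum total 15) were scaled with TMM and tested by the quasi-likelihood F test in edgeR 4.0.16 (R 4.3.3). A joint fit held the 12 tumors, and p-values were adjusted by Benjamini-Hochberg over 12897 genes. The interaction was combination minus trametinib minus cediranib plus control. Each SE was derived from the fold change and its F statistic. The fit was tested on simulated data. Levels per kb used the length column of the table, and a prior count of 2 was added for log2 CPM. The limit from 3 counts reflects counting error alone, as the reads carry no molecular identifiers. Libraries of 1 group differed by at least 14.3 in chi-square per degree of freedom, so none was a copy of another.

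The members, gene lists and tests were chosen with earlier results of these data known. Genes reported were all members, the pathway list genes with the smallest p past the threshold, Dusp6 and Egr1, and the 3 genes most correlated with each member. Apaf1, Birc5, Casp8 and Gpr137, and other list genes without a call, were named after their values were seen. Alternatives were other scaling, no filter, DESeq2 1.42.0, fits of only the groups compared, a replicate block, an epidermal score, and leaving out each tumor.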

Additional observations from a re-analysis of the deposited data

How the results depend on the processing

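All values are edgeR's unless DESeq2 is named. Of 367 single-gene values under alternatives other than leaving out a tumor, 338 kept their direction and their side of the FDR threshold, 11 kept the direction but no longer passed, 4 newly passed and 14 changed direction. Of 378 values with a single tumor left out, these numbers were 322, 22, 0 and 34. The cause was not tested for any of them, apart from fits with fewer samples.

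With trametinib 2 members passed, and 3 by DESeq2 (Mcl1 added), with 2 under every other alternative. With cediranib 0 passed under every alternative. For the combination against control 2 members passed, with 3 by DESeq2 (Mcl1 added), 1 under library totals, 1 in a fit of only the groups compared, 0 with the epidermal score, 0 when a log2 fold change of 1.5 was also required, and 0 to 2 with a tumor left out. For the combination against trametinib 1 member passed, with 2 without the filter (Bcl2l1 added, FDR 0.00688), 0 with the epidermal score and 0 to 1 with a tumor left out. For the combination against cediranib 2 members passed, with 1 under library totals, 1 without the filter, 0 in a fit of only the groups compared, 1 with the epidermal score, 0 when a log2 fold change of 1.5 was also required, and 0 to 1 with a tumor left out. For the interaction 0 members passed, with 1 without the filter (Bcl2, FDR 0.00899) and 0 with a tumor left out. Over all genes, 1287, 125 and 991 passed for the combination against control, trametinib and cediranib. With the epidermal score 71, 2 and 511 passed, and with a tumor left out 549 to 1343, 0 to 25 and 455 to 630. Without the filter 2390, 1411 and 1722 of 29102 genes passed, and 373 for the interaction.

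Replicate numbers did not pair the tumors: deviations from group means correlated between -0.22 and 0.36 over 18 same-numbered pairs, with a median of -0.01. With the replicate number as a block, 1 member in place of 2 passed for the combination against cediranib, as Bad had an FDR of 0.0589, and no other call of a member changed.

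No difference that passed changed direction. Scaling by library totals moved the median of all genes by 0.12 to 0.13 in the 3 combination comparisons, and with it the log2 fold change changed sign for Bcl2l11 (0.058) and Bax (0.083) against trametinib, for Bbc3 (0.051) and Bax (0.092) against cediranib, and for the Bcl2l11 interaction (0.053). Bcl2l11 with cediranib, near 0, was -0.000285 with RLE size factors, -0.0077 without the filter, -0.0014 in DESeq2 and -0.12 with the epidermal score. With that score, values changed sign for Bmf with cediranib (0.093), for Bbc3 in the combination against control (-0.15) and trametinib (-0.37), and for Bax in the combination against trametinib (0.16) and cediranib (0.052).

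Leaving out a tumor changed the sign of some small values. With cediranib the ranges were -0.27 to 0.091 for Bcl2l1, -0.20 to 0.35 for Bcl2l11, -0.62 to 0.14 for Bmf, -0.13 to 0.55 for Bbc3 and -0.14 to 0.41 for Bak1. With trametinib they were -0.15 to 0.40 for Bbc3 and -0.31 to 0.24 for Bak1, and for Bbc3 in the combination against control -0.056 to 0.49. Against trametinib the combination ranged from -0.052 to 0.081 for Mcl1, -0.28 to 0.20 for Bcl2l11, -0.010 to 0.20 for Bbc3 and -0.15 to 0.12 for Bax, and against cediranib from -0.23 to 0.33 for Bbc3 and -0.13 to 0.10 for Bax. The interaction ranged from -0.44 to 0.20 for Bcl2l11, -0.025 to 0.23 for Bad and -0.45 to 0.22 for Bbc3. Depth limits Pmaip1, Bmf and Bak1 most, and without the filter Pmaip1 had an FDR of 0.760 with trametinib.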
